A study of Homo sapiens with 8 samples.

Results

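The comparison set the 2 libraries labelled MYC_Zab (genotype Zab with MYC overexpression) against the 2 labelled Zab (Zab alone), 4 of the 8 libraries of the series. The question was what MYC overexpression does to nascent RNA when Zab is in both groups. All libraries came from U2OS, an established human osteosarcoma line, and were given 4-thiouridine (4-SU), a uridine analogue taken up into RNA during synthesis. TT-seq pulls out and sequences the RNA that carries it. The other 4 libraries were 2 labelled MYC (overexpression alone) and 2 labelled WT. The labels give neither the promoter nor the construct behind MYC or Zab, and nothing on clones or separate cultures. The p-values therefore rest on differences between libraries that may be only technical repeats. Values were available for 19414 coding gene symbols in each library, and 11985 genes with enough reads were tested.

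MYC is a transcription factor that pairs with MAX on E-box motifs and is known for raising genes of ribosome production, translation and nucleotide synthesis. Zαβ is the usual name for a pair of domains in ADAR, an enzyme that edits adenosines in RNA. The Zα domain of the pair binds the left-handed Z form of DNA or RNA. The series title names FACT, a histone chaperone that carries RNA polymerase II through nucleosomes, and Z-DNA, which forms readily in DNA that is unwound behind a moving polymerase. Topoisomerases relax that torsion, and long genes are known to depend on them.

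MYC went against its label, and ADAR, whose domains the name Zab recalls, differed between groups that share that label. MYC, on the plus strand of chromosome 8 at 128747680 to 128755197 (build hg19), had 752.1 and 772 CPM in the libraries labelled MYC_Zab, against 917 and 1015 CPM in those labelled Zab. CPM is the read count scaled to library size, here with TMM, a method that assumes the bulk of genes do not differ. The groups did not overlap, and on this scale MYC was the lower in the libraries whose label states overexpression. The log2 change was -0.34 ± 0.0408 (SE, n = 2 per group; adjusted p = 8.28e-08 by limma). On the deposited scale the change was 0.54, where the median of all genes was 0.89. The libraries labelled MYC averaged 6592 CPM and those labelled WT 764 CPM. ADAR (chromosome 1, 154554534 to 154580662, minus strand) had 32280 and 32340 CPM in MYC_Zab, against 519 and 567 CPM in Zab. It took 3.42% and 3.43% of the coding reads in MYC_Zab, against 0.0478% and 0.0516% in Zab. ADAR was thus 59.5-fold higher in MYC_Zab (log2 5.89 ± 0.0296, adjusted p = 4.65e-40), while both groups carry Zab by label. It averaged 455 CPM in MYC and 33910 CPM in WT. The ADAR level that the Zab label should give is not stated, since the construct is not. Because of MYC and ADAR, groups are called by label only, and every direction below belongs to the libraries so labelled.

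**Figure D1:**
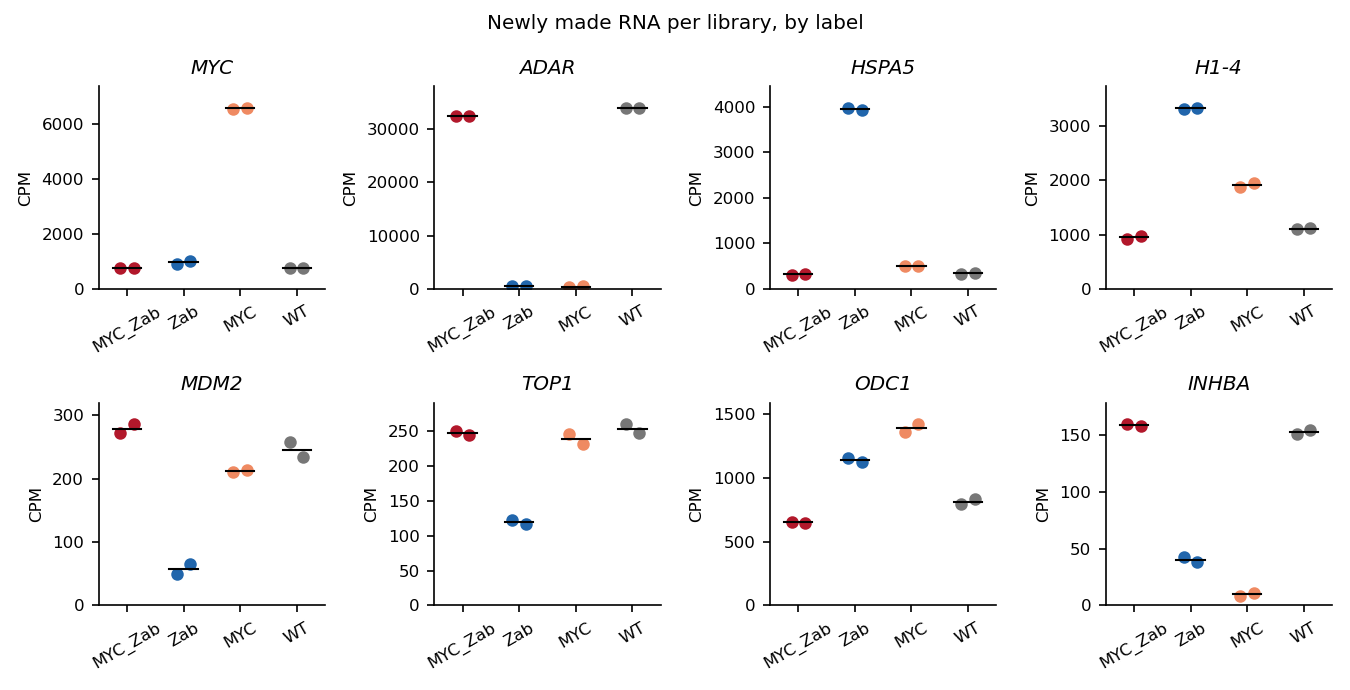
Levels of 8 genes in CPM (vertical axes from 0) in the 8 libraries; each point is a library, bars are group means, and labels run MYC_Zab, Zab, MYC, WT. MYC is high in the libraries labelled MYC only among the 4 groups, ADAR is high in MYC_Zab and WT, and HSPA5 and H1-4 are highest in Zab.

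The libraries held 3633889 and 3799962 coding-exon reads in MYC_Zab, against 1839960 and 2097530 in Zab. Coding exons took 13.5 ± 0.0423 reads per 100 tags in MYC_Zab, against 6.55 ± 0.154 in Zab (SD, n = 2 each), so every change below moves with that share, and its part was not tested. Replicates differed little, with a chi-square per gene of 2.037 in the MYC_Zab pair and 2.022 in the Zab pair. Pairs of a MYC_Zab and a Zab library had 27.0 to 30.4. Pairs of a MYC_Zab and a WT library, which differ by label in both genes, had 2.685 to 2.794. In bulk RNA, fewer cells of a kind and less RNA per cell cannot be told apart. The median gene shifted by log2 0.06 with TMM, 0.26 with library totals and 0.89 on the deposited scale. Changes below are on the TMM scale and are relative to that shift.

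Close to the same number of genes moved each way. In MYC_Zab 3217 genes were higher, 26.8% of the 11985 tested, and 2711 were lower, 22.6%, or 49.5% in all, at a limma adjusted p under 0.05. Every list count below is to be read beside these shares. On library totals the lower genes numbered 1742, and on the deposited scale the split was 8807 higher and 237 lower. Changes of at least 2-fold in mean CPM leaned upward: 1696 genes (14.2%) were higher and 552 (4.61%) lower. Groups without overlap were common, as in 95 of 99 ribosome biogenesis genes and 71 of 77 ribosomal proteins. The share without overlap over all genes is not given here. When the 2 MYC_Zab libraries were merged into 1 sample, and the 2 WT libraries likewise, 3861 genes were called, 1870 of them higher.

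The change followed the length of the gene. Gene span is the distance between the annotated ends of the counted transcript. The median log2 change was -0.32 in the 1168 genes spanning up to 5 kb, -0.13 in 3454 of 5 to 20 kb and 0.12 in 3230 of 20 to 50 kb. It was 0.29 in 1995 genes of 50 to 100 kb, 0.33 in 1343 of 100 to 200 kb and 0.42 in 795 above 200 kb. Each step up in span had a higher median, and the gap between the ends was log2 0.75. Of the genes above 200 kb, 38% were higher and 7.67% lower. Of those up to 5 kb, 9.33% were higher and 39% lower. The comparison of MYC with WT shares no library with this one, and its medians lay between -0.06 and 0.03 up to 200 kb and at -0.29 above it. Spearman's rho between change and span was 0.298 across genes, which are not independent replicates, and -0.055 in MYC over WT.

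The same trend stood in each library's own make-up. Genes up to 5 kb held 13.57% and 13.59% of the values in MYC_Zab, against 17.98% and 18.09% in Zab. Genes above 200 kb held 3.873% and 3.889% in MYC_Zab, against 2.942% and 2.882% in Zab. Neither pair of groups overlapped, and the exact two-sided permutation p of 0.333 is the smallest that 2 against 2 can give. The Zab libraries stood apart for the short genes, since the MYC and WT libraries lay between 13.87% and 13.94%.

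Span moved with 2 other properties. Longer spans carry longer exons (rho 0.599 across genes), and the median change was -0.21 in genes with up to 1 kb of exon and 0.40 in those above 6 kb. Genes of higher level changed downward: the median was 0.40 in the lowest sixth of mean level and -0.29 in the highest. The span trend stood when genes were split by level into 3 equal parts, with medians of -0.49 and 0.27 for the shortest and longest classes in the highest part and -0.13 and 0.62 in the lowest. It also stood within exon-length classes, from -0.37 to 0.30 in genes of up to 2 kb of exon, though only 27 of those spanned over 200 kb. With the exon-length trend removed the gap between the ends was 0.32. Among genes spanning up to 5 kb, the 1076 that are neither histones nor ribosomal proteins had a median of -0.30, with 9.57% higher and 35.7% lower. Among 281 genes with no intron in the counted transcript, 33 were higher and 106 lower (median -0.31), and without both lists the figures were 33 and 64 of 233. The 7176 genes counted on the same transcript in the 4 libraries had a rho of 0.270. Among chromosomes, 22 and 19 had the largest shares lower (43% and 41.9%), and 13 had the largest share higher (45.9%).

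**Figure D2:**
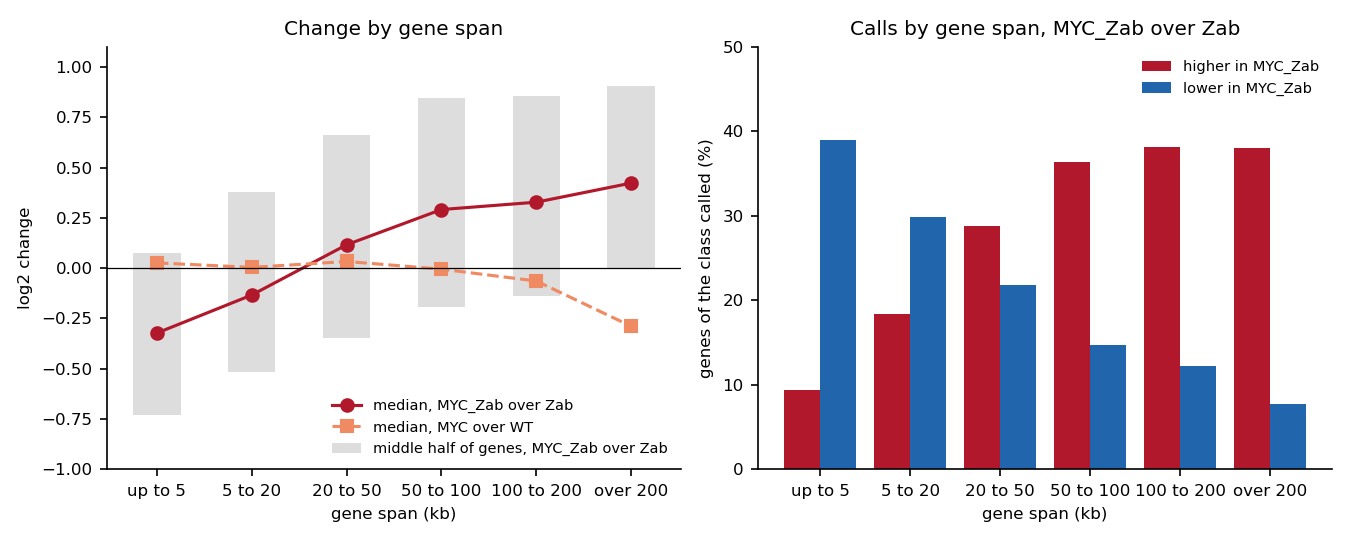
Left, log2 change by gene span class (kb) with the median for MYC_Zab over Zab (circles), its middle range of genes from the lower to the upper quartile (grey) and the median for MYC over WT (squares). Right, percent of each class called higher or lower in MYC_Zab; the share called lower falls from 39% to 7.67% along the axis while the share called higher is 9.33% at the short end and 38% at the long end.

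The unfolded protein response made one of the largest downward groups. This response senses misfolded protein in the endoplasmic reticulum through ATF6, IRE1 (gene ERN1) and PERK, and raises chaperones through the ER stress element, CCAAT and CCACG separated by 9 bases. Of 34 tested members 25 were lower and 2 higher, with a median log2 change of -1.27 (0.06 over all genes tested). With the span trend removed the median was -1.51 and 24 were lower. On the deposited scale the median was -0.40. The members' summed level was 5344 and 5343 CPM in MYC_Zab, against 15900 and 15960 CPM in Zab.

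HSPA5 (BiP), the main chaperone of that compartment, maps to chromosome 9, 127997132 to 128003622 (hg19, minus strand). It had 314 and 329.9 CPM in MYC_Zab, against 3979 and 3934 CPM in Zab. The groups stood far apart, 12.3-fold, with a log2 change of -3.62 ± 0.0479 (adjusted p = 4.79e-29). CRELD2, a secreted folding factor of the compartment, had 35.3 and 38.2 CPM in MYC_Zab, against 368 and 346 CPM in Zab, 9.71-fold lower. SDF2L1, a co-chaperone, had 27.5 and 22.8 CPM in MYC_Zab, against 222 and 206 CPM in Zab, 8.51-fold lower. All 3 are among the 12 largest falls, a rule that required no overlap, so their separation follows from the choice. The groups did not overlap in 29 of the 34 members tested. HYOU1, an Hsp70-like chaperone, had 171 and 179.5 CPM in MYC_Zab, against 904 and 922 CPM in Zab (log2 -2.38 ± 0.0773). Calreticulin, CALR, which folds glycoproteins, had 554 and 564 CPM in MYC_Zab, against 2058 and 2200.0 CPM in Zab (log2 -1.93 ± 0.0462). The sensors and factors of the pathway had smaller changes, and are given after their values were seen. ERN1 was higher by log2 0.55, while ATF6 and XBP1 changed by -0.42 and -0.46. EIF2AK3, which encodes PERK, had -0.08 and did not pass the test (adjusted p = 0.831). ATF4, the translation-controlled factor of the pathway, was higher by 0.52.

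Promoters of this group are shown because the element that names the pathway stands in several of the genes that fell most. Sequences are from RefSeq (build GRCh38.p14), on the gene's own strand, 5′ to 3′. Capitals mark CCAAT and CCACG, or both as read on the other strand, ATTGG and CGTGG, where the pair has the 9-base spacing; other copies of these letters stay in lower case. HSPA5 is chr9:125241371-125241429 (minus), CRELD2 chr22:49918534-49918592 (plus), CALR chr19:12938364-12938422 (plus), CANX chr5:179698758-179698816 (plus) and HSP90B1, with 2 matches, chr12:103930196-103930359 (plus).
HSPA5: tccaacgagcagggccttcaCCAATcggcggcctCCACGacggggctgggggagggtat
CRELD2: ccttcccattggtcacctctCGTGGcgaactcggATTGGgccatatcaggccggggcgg
CALR: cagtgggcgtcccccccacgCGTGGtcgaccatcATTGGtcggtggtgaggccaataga
CANX: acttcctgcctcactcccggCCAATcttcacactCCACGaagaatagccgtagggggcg
HSP90B1: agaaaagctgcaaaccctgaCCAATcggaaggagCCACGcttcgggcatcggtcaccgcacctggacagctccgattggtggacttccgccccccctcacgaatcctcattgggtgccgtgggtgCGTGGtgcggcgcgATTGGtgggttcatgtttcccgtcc

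Windows ran from 250 bases before to 50 after the start, both strands were searched, and 9707 tested genes matched a promoter by symbol. The element was present in 14 of the 9707, 0.144%, and in 7 of the 32 promoters of the unfolded protein response list, 21.9%. Of the 14 genes 10 were lower and 2 higher (median -0.78). The lower ones, all read off after the values were seen, were HSPA5, CRELD2, CALR, HSP90B1, CANX, ALG12, TMEM120A, SERP1, TRIM5 and XBP1. The higher ones were EIF2A (0.93) and ZNF17 (0.97). HSP90B1, the Hsp90 of the compartment, changed by -1.51 ± 0.0646, and calnexin, CANX, by -1.44 ± 0.0497. A match is a stretch of letters, not a measured site.

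**Figure D3:**
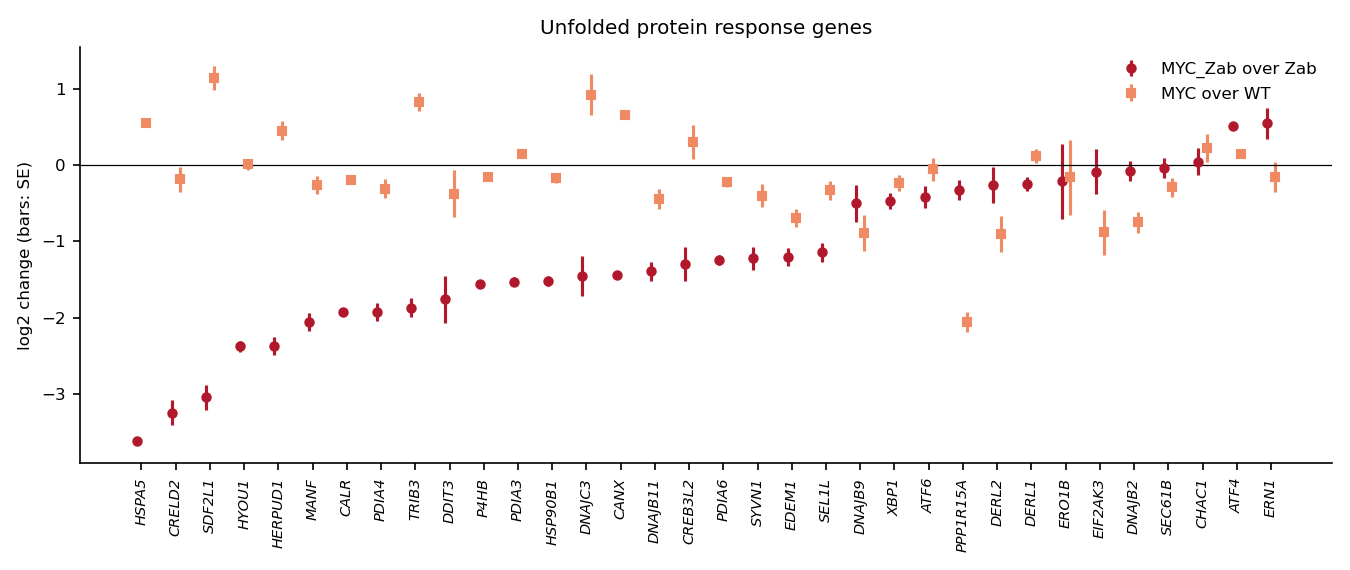
Log2 change with SE of the 34 tested unfolded protein response genes in MYC_Zab over Zab (circles) and in MYC over WT (squares), ordered by the first. HSPA5 lies at -3.62 in MYC_Zab over Zab and at 0.55 in MYC over WT.

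Replication-dependent histones fell together. These genes are short, have no intron, end in a stem-loop in place of a poly(A) tail and are made in S phase. Of 49 tested 43 were lower and 0 higher by limma, with a median of -1.76 and a median span of 0.46 kb. The list ran from -2.32 to 0.28. Summed over members, the level was 8291 and 8076 CPM in MYC_Zab, against 28470 and 29460 CPM in Zab. With the span trend removed the median was -0.94 and 32 members were lower, a value over 1.5 times smaller. Near-identical copies can share reads, so single members are uncertain.

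Linker histone H1-4 (plus strand of chromosome 6, 26156559 to 26157343) had 918 and 976 CPM in MYC_Zab, against 3306 and 3331 CPM in Zab. H1-2, another linker histone, had 919 and 910.0 CPM in MYC_Zab, against 3124 and 3265 CPM in Zab. H3C2, an H3 gene of the same cluster, had 526 and 499 CPM in MYC_Zab, against 1893 and 1914 CPM in Zab. The groups lay well apart for all 3, which were picked for their small p. Their log2 changes were -1.81 ± 0.0355, -1.80 ± 0.035 and -1.89 ± 0.0475 in that order. The groups did not overlap in 45 of the 49 replication-dependent histones tested. Replication-independent variants, which are made through the cycle, had 6 of 11 lower and 0 higher (median -0.27). Among them H2AX, the variant phosphorylated at DNA breaks, changed by -1.10 ± 0.0847, and H1-10 by -1.15 ± 0.085.

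Histone promoters are shown for the elements that most of them share. Capitals mark TATAAA and CCAAT on either strand. H1-4 is chr6:26156161-26156325 (plus) and H3C2 chr6:26032106-26032215 (minus) of GRCh38.p14, from RefSeq.
H1-4: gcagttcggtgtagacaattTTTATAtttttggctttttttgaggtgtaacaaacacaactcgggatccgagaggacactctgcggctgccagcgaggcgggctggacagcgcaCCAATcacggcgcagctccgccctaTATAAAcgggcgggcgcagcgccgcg
H3C2: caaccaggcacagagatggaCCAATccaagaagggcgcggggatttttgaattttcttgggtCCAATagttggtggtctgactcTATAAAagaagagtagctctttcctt
TATAAA was in 33 of 46 histone promoters, 71.7%, against 5.39% of all 9707, and CCAAT, which also lies inside the ER stress element, in 38 of 46, 82.6%, against 36.9% of all. Across all genes with TATAAA 139 were higher and 137 lower (median 0.06).

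Canonical MYC targets were mostly lower, relative to all genes, in the libraries labelled MYC_Zab. Of 58 tested 35 were lower and 10 higher, with a median of -0.32, while in MYC over WT 50 were higher and 2 lower (median 0.54). On the deposited scale the median in MYC_Zab over Zab was 0.57, where the median of all genes was 0.89, and ODC1 changed by 0.08. ODC1, the first enzyme of polyamine synthesis, had 653 and 649 CPM in MYC_Zab, against 1153 and 1125 CPM in Zab (log2 -0.81 ± 0.0423, adjusted p = 4.55e-15). BOP1, of large ribosomal subunit processing, had 334 and 277 CPM in MYC_Zab, against 703 and 689 CPM in Zab (log2 -1.19 ± 0.0704). Both were below Zab in each library and have some of the smallest p of the list. The groups did not overlap in 52 of the 58 targets tested. HSP90AB1, a cytosolic chaperone with processed pseudogenes, changed by -0.38 ± 0.0215. Nucleolin, NCL, had 1374 and 1369 CPM in MYC_Zab, against 1385 and 1487 CPM in Zab, and did not pass the test (-0.07 ± 0.0363, adjusted p = 0.137). That gene passed with DESeq2's size factors, at -0.11 (adjusted p = 0.0105), and without Zab replicate 1, at -0.12 (adjusted p = 0.00577).

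MYC's E-box, CACGTG, is its own reverse complement. It was in 15 of 46 target promoters, 32.6%, against 10.3% of all 9707. Of the 15 genes 11 were lower and 4 higher, while across all 1001 genes with the motif 249 were lower and 273 higher (median 0.04). The 2 windows below are examples from lower targets whose E-boxes lie before the start, chosen after their values were seen. Other lower targets with the motif are not shown, and those shown need not have the smallest p. SLC7A5, an amino acid transporter, is chr16:87869612-87869657 (minus), and EIF4G1, the translation initiation scaffold, with 2 matches, is chr3:184314442-184314564 (plus).
SLC7A5: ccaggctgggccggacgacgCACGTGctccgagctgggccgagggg
EIF4G1: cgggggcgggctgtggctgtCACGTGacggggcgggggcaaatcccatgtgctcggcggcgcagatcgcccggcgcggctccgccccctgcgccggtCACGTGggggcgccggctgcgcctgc
SLC7A5 changed by -0.56 and EIF4G1 by -0.44, and both were lower in MYC_Zab.

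In the MYC network the share called was near that over all genes. MAX, the obligate partner, had 146 and 162 CPM in MYC_Zab, against 142 and 153 CPM in Zab, overlapping groups that did not pass the test (0.06 ± 0.0944, adjusted p = 0.622). Of 21 network genes 7 were lower and 3 higher (median -0.21), and 10 were lower and 0 higher by limma with the span trend removed (median -0.42). RUVBL2, an ATPase of chromatin remodellers, changed by -0.98 ± 0.0756. MGA, a MAX partner that opposes MYC, was 0.50 ± 0.0887, but 0.10 (adjusted p = 0.373) with the span trend removed. Of 25 genes reported as MYC-repressed 8 were higher and 4 lower (median 0.21), beside 26.8% and 22.6% of all genes. Relative to all genes that median was 0.145, but 0.0133 without Zab replicate 2. ZFP36L1, an RNA decay factor, changed by 0.85 ± 0.0659 and vimentin, VIM, by -0.49 ± 0.0319. NDRG1, a stress-response gene, had 114 and 130.1 CPM in MYC_Zab, against 515 and 514 CPM in Zab (log2 -2.07 ± 0.0961).

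Ribosome and translation genes were mixed. Of 99 ribosome biogenesis genes 36 were higher and 40 lower, close to a balance (median -0.01). PES1, the partner of BOP1, changed by -0.90 ± 0.0577. WDR74 had 2879 and 2807 CPM in MYC_Zab, against 10740 and 9599 CPM in Zab (log2 -1.84 ± 0.032), but the snRNA gene RNU2-2 overlaps WDR74, so the reads of the pair cannot be told apart. Of 77 cytosolic ribosomal proteins 46 were lower and 19 higher, with a median of -0.27 that was -0.03 after the span trend was removed, where 31 were lower and 28 higher. RPL8 had 1934 and 1833 CPM in MYC_Zab, against 3703 and 3730.0 CPM in Zab (log2 -0.98 ± 0.0305). RPSA and RPS2, both small-subunit proteins, changed by -0.999 ± 0.0386 and -0.80 ± 0.0319. Processed pseudogenes make ribosomal protein counts uncertain. Of 57 translation factors and tRNA synthetases 20 were higher and 24 lower. EIF3B, an initiation factor subunit, had 636 and 626 CPM in MYC_Zab, against 1350.0 and 1279 CPM in Zab (log2 -1.06 ± 0.0429), and EEF2, the elongation factor that moves the ribosome, changed by -0.63 ± 0.027. EIF5B, which joins the subunits, went the other way, with 351 and 372 CPM in MYC_Zab, against 116 and 119 CPM in Zab (log2 1.61 ± 0.0695).

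Targets of p53, the stress-activated brake on the cell cycle, were higher. Of 29 tested 20 were higher and 3 lower, beside 26.8% and 22.6% of all genes. The median was 0.66, or 0.51 with the span trend removed. MDM2, the ligase that degrades p53, had 272 and 286 CPM in MYC_Zab, against 50.1 and 64.9 CPM in Zab (log2 2.27 ± 0.101, adjusted p = 1.1e-16). BTG2, an antiproliferative factor, had 173 and 153 CPM in MYC_Zab, against 60.1 and 73.3 CPM in Zab (log2 1.28 ± 0.113). GADD45A, a damage-response gene, had 178 and 149 CPM in MYC_Zab, against 66.0 and 71.2 CPM in Zab (log2 1.23 ± 0.119). No MYC_Zab library overlapped a Zab library for these 3 genes, which were picked for their small p. The groups did not overlap in 28 of the 29 tested. BTG2 and GADD45A span 4.08 and 3.13 kb, so both rose against the trend for short genes. CDKN1A, the kinase inhibitor p21, changed by 0.44 ± 0.0666.

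Cell cycle lists held changes in both directions. Of 49 S phase genes 22 were lower and 9 higher (median -0.21). TK1, of thymidine salvage, had 73.4 and 83.7 CPM in MYC_Zab, against 201 and 208 CPM in Zab (log2 -1.37 ± 0.108), and MCM7, of the replicative helicase, changed by -0.77 ± 0.0493. RRM2, which makes deoxynucleotides, changed by -0.88 ± 0.0661. Of 44 mitotic genes 15 were higher and 19 lower, and the change followed span within the list (rho 0.539 across its genes). CENPF, a kinetochore protein of a 61.4 kb gene, had 289 and 289.9 CPM in MYC_Zab, against 71.3 and 58.1 CPM in Zab (log2 2.15 ± 0.0908). CDC20, the anaphase activator, of a 4.22 kb gene, had 308 and 305 CPM in MYC_Zab, against 627 and 615 CPM in Zab (log2 -1.02 ± 0.0575).

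The subunits of FACT moved apart on the TMM scale. SUPT16H had 237 and 238 CPM in MYC_Zab, against 144 and 165 CPM in Zab (log2 0.62 ± 0.0796, adjusted p = 2.72e-07). SSRP1 had 511 and 513 CPM in MYC_Zab, against 713 and 725 CPM in Zab (log2 -0.49 ± 0.0504, adjusted p = 5.39e-09). The longer SUPT16H gene spans 32.5 kb and SSRP1 9.9 kb. With the span trend removed the changes were 0.42 and -0.45. Of 27 histone chaperones 9 were higher and 10 lower (median -0.09). ATRX, which deposits H3.3 with DAXX, had 91.1 and 89.6 CPM in MYC_Zab, against 22.4 and 37.2 CPM in Zab (log2 1.61 ± 0.162). NAP1L1, an H2A-H2B chaperone, changed by 1.13 ± 0.0604 and NPM1, a nucleolar chaperone, by 0.53 ± 0.0362.

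TOP1, TOP2A and TOP2B were higher, within a mixed list of topoisomerases with 4 of 8 higher and 3 lower. TOP1, which nicks a single strand, had 251.2 and 245 CPM in MYC_Zab, against 123 and 116 CPM in Zab (log2 1.05 ± 0.08, adjusted p = 1.48e-11, 0.66 with the span trend removed). TOP2A, the proliferation form of topoisomerase II, had 434 and 417 CPM in MYC_Zab, against 221 and 210.0 CPM in Zab (log2 0.98 ± 0.0622). TOP2B, the form used in transcription of long genes, had 130.0 and 136 CPM in MYC_Zab, against 36.6 and 38.8 CPM in Zab (log2 1.79 ± 0.118). Groups were separate for each of them, which have the smallest p of the list, and in 7 of the 8 tested.

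The list for sensing of Z-form and double-stranded nucleic acid had 5 of 18 higher, ADAR among them, near the 26.8% over all genes. It had 8 lower, beside 22.6% of all genes. DICER1, which cuts double-stranded RNA, had 72.1 and 78.2 CPM in MYC_Zab, against 29.5 and 24.6 CPM in Zab (log2 1.45 ± 0.151). Interferon-stimulated genes had 12 of 25 lower and 4 higher, with a median of -0.41. Relative to all genes that median was -0.47, but -0.0524 among genes of at least 5 CPM and 0.0207 among those counted on the same transcript in all libraries. ISG15, a ubiquitin-like antiviral protein, had 10.9 and 6.45 CPM in MYC_Zab, against 56.0 and 72.8 CPM in Zab (log2 -2.78 ± 0.325). PARP14, an interferon-induced ADP-ribosyltransferase, had 52.2 and 54.6 CPM in MYC_Zab, against 17.7 and 20.9 CPM in Zab (log2 1.42 ± 0.193).

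Zinc finger genes, most of which encode DNA-binding repressors, had the highest list median with a pseudocount of 1 CPM, on lists chosen with earlier results known. With 5 CPM that median, relative to all genes, was 0.5911 in place of 0.94, and no longer the highest. Of 79 tested 48 were higher and 0 lower by limma, with a median of 1.003, or 0.84 with the span trend removed, where 44 were higher and 1 lower. Their summed level was 2364 and 2411 CPM in MYC_Zab, against 1436 and 1386 CPM in Zab. ZNF644 had 54.2 and 59.1 CPM in MYC_Zab, against 11.8 and 7.33 CPM in Zab (log2 2.48 ± 0.204). ZNF638 had 117 and 124 CPM in MYC_Zab, against 42.4 and 35.6 CPM in Zab (log2 1.61 ± 0.121), and ZNF148 changed by 1.48 ± 0.144. Over all genes the median fell from 0.40 in the lowest sixth of level to -0.29 in the highest. The level class of the zinc finger genes was not worked out, and the part of level in their change was not tested.

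**Figure D4:**
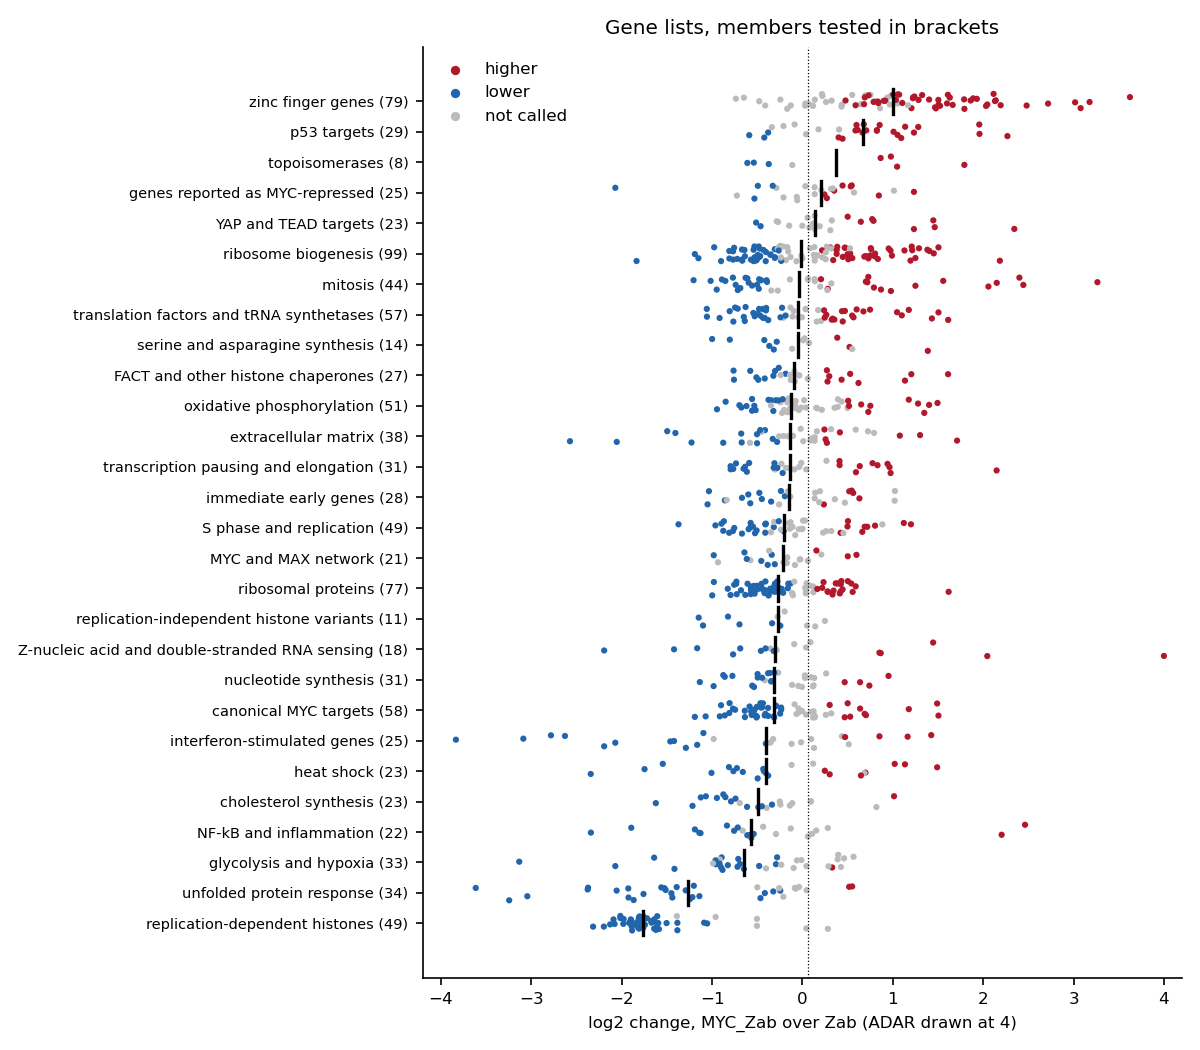
Log2 change in MYC_Zab over Zab of every tested member of 28 gene lists (number tested in brackets), coloured by call, with the list median as a black bar and the median of all genes tested, 0.06, as a dotted line. Zinc finger genes and p53 targets lie to the right, at medians of 1.003 and 0.66, and histones and the unfolded protein response to the left, at -1.76 and -1.27; ADAR, at 5.89, is drawn at the edge.

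After ADAR, the 11 largest rises were of genes spanning 18.46 to 184.68 kb whose mean in Zab was under 7 CPM. The minimum of 5 CPM for named genes is a mean over the 4 libraries, so a gene could meet it through its higher group alone. SAMD9, an antiviral factor, had 27.0 and 37.7 CPM in MYC_Zab, against 0 and 1.05 CPM in Zab. With 2 reads in Zab the ratio was 67.8, with a 95% counting interval of 18.6 to 563. STXBP3, a vesicle fusion regulator, also had 2 reads in Zab and a ratio of 55.4 (15.1 to 460.0), and CCDC152 a ratio of 31 (8.39 to 259). ZNF33A had 0 reads in Zab and was at least 15.9-fold higher in MYC_Zab against a floor of 3 reads over the group. SGO2, which guards centromeric cohesion, had 43.3 and 57.6 CPM in MYC_Zab, against 5.89 and 1.05 CPM in Zab. ESCO1, which acetylates cohesin, had 51.4 and 49.1 CPM in MYC_Zab, against 5.89 and 2.10 CPM in Zab. SMC6, of the SMC5/6 complex, had 48.5 and 33.0 CPM in MYC_Zab, against 3.54 and 2.10 CPM in Zab. All 3 were 12.6-fold to 14.5-fold higher. CENPE, a kinetochore motor, had 76.3 and 68.8 CPM in MYC_Zab, against 6.48 and 6.81 CPM in Zab (log2 3.26 ± 0.22). REV3L, the catalytic subunit of a translesion polymerase, had 69.0 and 78.9 CPM in MYC_Zab, against 3.54 and 9.95 CPM in Zab (log2 3.41 ± 0.268). CEP290, of the ciliary transition zone, and FAM111B were 14-fold and 11.7-fold higher.

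The 12 largest falls were of genes spanning 1.39 to 18.95 kb, and 9 of them had under 3 CPM in MYC_Zab. Here too a gene could meet the minimum level through Zab alone. SPRR2D, an epidermal envelope protein, had 1.56 and 0.496 CPM in MYC_Zab, against 137 and 124 CPM in Zab (log2 -6.07 ± 0.47, adjusted p = 1.92e-11). PI3, an elastase inhibitor of skin, had 2.60 and 2.48 CPM in MYC_Zab, against 28.9 and 31.4 CPM in Zab (log2 -3.14 ± 0.412). LCN2, an iron-trapping defence protein, had 2 reads in MYC_Zab and a fall of 53.8-fold (counting interval 14.2 to 455). The chemokine CCL5 had 0 reads in MYC_Zab and was at least 27.7-fold lower. With 0 CPM in MYC and WT too, this gene entered the test only through Zab. It did not pass with DESeq2 (adjusted p = 0.17). OASL, an interferon-induced gene, had 2.08 and 0.993 CPM in MYC_Zab, against 39.5 and 29.9 CPM in Zab (log2 -3.84 ± 0.524). The growth factor CSF2, the ribonuclease ANG, OSCAR and KLHDC7B changed by -2.99, -3.08, -3.85 and -3.29.

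Inflammatory genes leaned lower relative to all genes. Of 22 NF-kB and inflammatory genes 12 were lower and 2 higher (median -0.57). On the deposited scale their median was 0.30, where the median of all genes was 0.89. IER3, a survival gene of 1.35 kb, had 102 and 111 CPM in MYC_Zab, against 379 and 415 CPM in Zab (log2 -1.89 ± 0.1). NFKBIA, the inhibitor of NF-kB, had 78.9 and 67.3 CPM in MYC_Zab, against 162.1 and 161.8 CPM in Zab (log2 -1.14 ± 0.134). REL, an NF-kB subunit of 50.04 kb, was higher, with 36.6 and 34.7 CPM in MYC_Zab, against 11.2 and 4.19 CPM in Zab (log2 2.20 ± 0.294). Of 28 immediate early genes 11 were lower and 5 higher (median -0.15). With the span trend removed 7 were lower and 6 higher, and on the same transcripts the median relative to all genes was 0.0176. The transcription factors SRF and JUND changed by -1.05 ± 0.114 and -1.03 ± 0.13, and IER2 by -0.86 ± 0.0798.

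Heat shock genes were split by member. Of 23 tested 13 were lower and 7 higher (median -0.41), with a rho of 0.582 between change and span. HSP90AA1, the inducible cytosolic Hsp90, of a 59.0 kb span, had 1631 and 1642 CPM in MYC_Zab, against 728 and 763 CPM in Zab (log2 1.13 ± 0.0372). HSPA8, the constitutive Hsp70, of 4.65 kb, had 2472 and 2467 CPM in MYC_Zab, against 4108 and 4061 CPM in Zab (log2 -0.73 ± 0.0267). HSPA1A had 114 and 111 CPM in MYC_Zab, against 334 and 327 CPM in Zab (log2 -1.55 ± 0.0843), and its near-identical copy HSPA1B makes the split of reads uncertain.

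Glycolysis and cholesterol genes were mostly lower or not called on the TMM scale. On the deposited scale their list medians were 0.23 and 0.38, where the median of all genes was 0.89. Of 33 glycolysis and hypoxia genes 18 were lower and 1 higher, with a median of -0.65 (-0.61 with the span trend removed). ENO1, or enolase, had 3464 and 3443 CPM in MYC_Zab, against 6441 and 6610.0 CPM in Zab (log2 -0.92 ± 0.0232). GAPDH had 6270.0 and 6365 CPM in MYC_Zab, against 10160.0 and 10240.0 CPM in Zab (log2 -0.69 ± 0.0181). PKM, or pyruvate kinase, had 2671 and 2565 CPM in MYC_Zab, against 4990.0 and 5210.0 CPM in Zab (log2 -0.96 ± 0.0274). The 3 genes span 17.7, 3.85 and 32.2 kb. Of 23 cholesterol synthesis genes 13 were lower and 1 higher, with a median of -0.49 (-0.66 with the span trend removed). SREBF2, the master transcription factor of the pathway, changed by -1.07 ± 0.0821 and FDFT1, or squalene synthase, by -0.85 ± 0.113. Of 31 nucleotide synthesis genes 15 were lower and 4 higher (median -0.31), with the mitochondrial serine enzyme SHMT2 at -0.86 ± 0.0619 and NME2, a nucleotide kinase, at -0.50 ± 0.0542.

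Serine and asparagine genes had 6 of 14 lower and 3 higher. PHGDH, the first enzyme of serine synthesis, had 157 and 175 CPM in MYC_Zab, against 336 and 329 CPM in Zab (log2 -0.9998 ± 0.0825), and PYCR1, of proline synthesis, changed by -0.80 ± 0.0629. SLC7A11, the cystine transporter, of a 78.3 kb gene, changed by 1.39 ± 0.123. Nuclear-encoded oxidative phosphorylation genes had 15 of 51 lower and 10 higher, near the shares over all genes. CYC1, of complex III, changed by -0.85 ± 0.0567, while SDHD, of complex II, and COX7C, of complex IV, changed by 1.49 ± 0.125 and 1.18 ± 0.104.

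Matrix and signalling genes showed no single direction. Of 38 extracellular matrix genes 14 were lower and 7 higher (median -0.13). TIMP1, a protease inhibitor, had 673 and 660.0 CPM in MYC_Zab, against 1552 and 1574 CPM in Zab (log2 -1.23 ± 0.0474). The collagens COL6A2 and COL12A1 moved apart, at -1.41 ± 0.139 and 1.30 ± 0.094, from spans of 34.7 and 122 kb. Of 23 YAP and TEAD targets 8 were higher and 2 lower (median 0.14). ANKRD1, a mechanical-stress gene, had 165 and 171 CPM in MYC_Zab, against 51.3 and 72.3 CPM in Zab (log2 1.45 ± 0.167), and ASAP1 changed by 0.79 ± 0.0889. Thrombospondin, THBS1, changed by -0.33 ± 0.0651. Pausing and elongation factors had 12 of 31 lower and 10 higher (median -0.14). SUPT5H, of the elongation factor DSIF, had 242 and 275 CPM in MYC_Zab, against 412 and 449 CPM in Zab (log2 -0.74 ± 0.0772), and INTS1, the Integrator scaffold, and CPSF1, of 3′ end cleavage, both changed by -0.80 (SE 0.0573 and 0.0741).

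Single genes at the ends of the span range departed from the trend as well as followed it. CSMD3, at 1184 kb, had 24.1 and 26.8 CPM in MYC_Zab, against 2.95 and 4.19 CPM in Zab (log2 2.55 ± 0.39). SEMA3E, a guidance factor of 285.9 kb, had 29.1 and 26.8 CPM in MYC_Zab, against 2.36 and 5.76 CPM in Zab (log2 2.60 ± 0.289). CCDC148 and ARHGAP42, above 200 kb too, changed by 3.04 and 2.72. Against the trend, the cadherin CDH4, of 688 kb, had 57.9 and 65.3 CPM in MYC_Zab, against 141.5 and 155 CPM in Zab (log2 -1.26 ± 0.149). HDAC4, RPS6KA2 and PDE4B changed by -1.50, -1.30 and -1.23, but each had under 16 CPM. HDAC4 did not pass without Zab replicate 1 (adjusted p = 0.0602) or either MYC_Zab library (0.0647 and 0.0927). RPS6KA2 did not pass without Zab replicate 2 (adjusted p = 0.081) or MYC_Zab replicate 2 (adjusted p = 0.225, at -0.86), and PDE4B not without MYC_Zab replicate 1 (adjusted p = 0.0662) or MYC_Zab replicate 2 (adjusted p = 0.0594). Short genes that were higher included TXNIP, a glucose-regulated gene of 4.14 kb, at 1.76 ± 0.267, and GPR135 at 2.20 ± 0.407. EID3 had 3 reads in Zab and a ratio of 13.1 (4.3 to 64.8). KCTD6, at 1.65, was 0.78 and did not pass without Zab replicate 1 (adjusted p = 0.0948), and was 2.53 without Zab replicate 2.

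The comparison with Zab was set against MYC over WT, the comparison without it by label. The difference between the 2 changes was tested as an interaction: 3508 genes (29.3%) had a higher change in MYC_Zab over Zab and 2876 (24.0%) a lower one. For MYC over WT alone the calls were 2657 genes up (22.2%) and 2623 down (21.9%). Of the genes lower in MYC_Zab over Zab 1120 were higher in MYC over WT, 41.3% of the first group and 42.2% of the second, against 533 lower in both. Of the genes higher in MYC_Zab over Zab 795 were lower in MYC over WT, 24.7% and 30.3%, against 459 higher in both. Across genes rho between the changes was -0.186. The MYC_Zab and WT libraries were close (chi-square per gene 2.685 to 2.794), and they enter the 2 changes with opposite signs. How much of the opposition rests on that was not tested. Among canonical MYC targets the interaction was lower in 42 of 58 and higher in 8 (median -0.77). It was lower in 20 of 23 cholesterol synthesis genes and higher in 0 by limma (median -1.42). It was lower in 40 of 49 replication-dependent histones and higher in 0 by limma (median -2.31).

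Single genes with opposite changes follow. Apart from MYC, a preset gene, they were picked as the largest interactions, so their opposition follows largely from the choice. MYC itself changed by 3.11 in MYC over WT and -0.34 in MYC_Zab over Zab, an interaction of -3.45 (adjusted p = 1.56e-26). MMP3, a matrix protease, had 283.1 and 282.7 CPM in MYC_Zab, against 119 and 149.8 CPM in Zab, while it averaged 7.04 CPM in MYC and 289 CPM in WT (interaction 6.27). INHBA, the activin A subunit, had 159.9 and 159 CPM in MYC_Zab, against 42.4 and 38.2 CPM in Zab, and averaged 9.82 CPM in MYC and 153 CPM in WT (interaction 5.81). ESM1, an endothelial secreted proteoglycan, had 38.4 and 32.3 CPM in MYC_Zab, against 14.2 and 8.90 CPM in Zab, and averaged 0.258 CPM in MYC and 32.5 CPM in WT (interaction 6.29). In all 3 the MYC_Zab and WT libraries stood at like levels and the MYC libraries were lowest. INSIG1, which restrains sterol synthesis, had 3.63 and 2.98 CPM in MYC_Zab, against 12.97 and 11.5 CPM in Zab, and averaged 41.6 CPM in MYC and 4.14 CPM in WT (interaction -4.71). HSPA6, a strictly inducible Hsp70, had 1.04 and 1.49 CPM in MYC_Zab, against 9.43 and 11.5 CPM in Zab, and averaged 8.29 CPM in MYC and 0.682 CPM in WT (interaction -4.77).

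**Figure D5:**
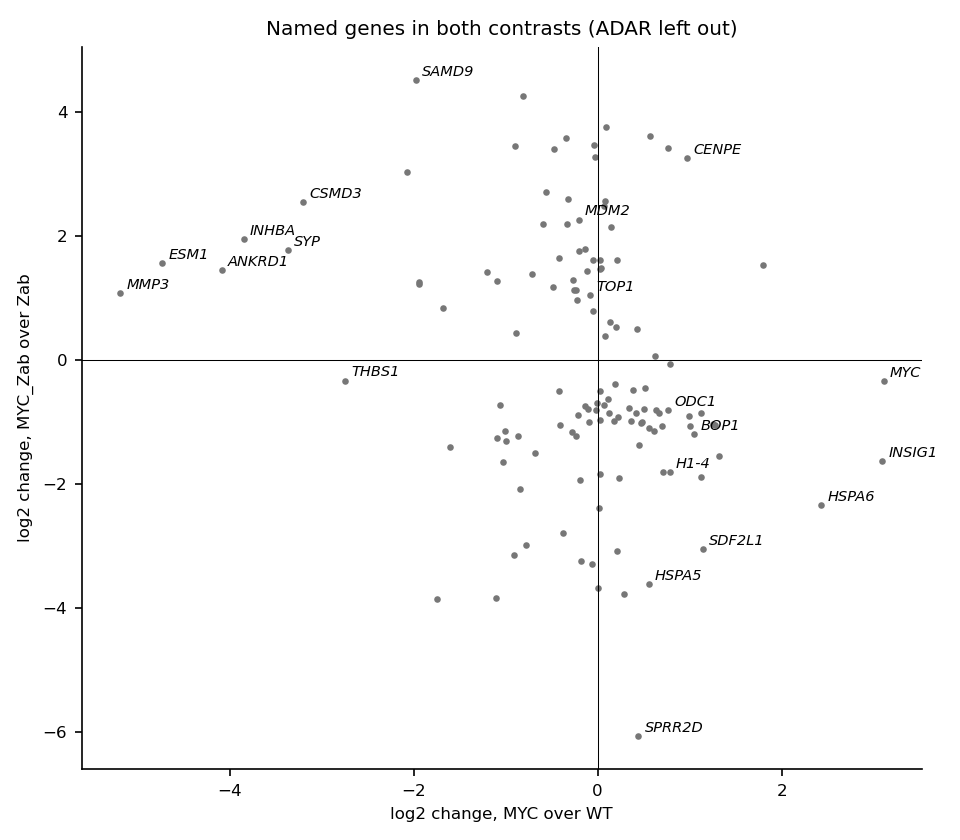
Log2 change in MYC_Zab over Zab (vertical) against MYC over WT (horizontal) for named genes, ADAR left out. MMP3, ESM1, INHBA and ANKRD1 lie at the upper left, and MYC, INSIG1 and HSPA6 at the lower right.

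Markers of the cell line and of other cell types were read in the same libraries, with sums in CPM by library total. Of 20 osteoblast and mesenchymal markers 2 (SP7 and TWIST1) had 0 reads in the 4 libraries, and the summed level was 3655 and 3567 CPM in MYC_Zab, against 3803 and 3926 CPM in Zab. RUNX2, the osteoblast factor, had 9.08 and 13.9 CPM in MYC_Zab, against 4.72 and 2.10 CPM in Zab (log2 1.54 ± 0.364), and THY1, a mesenchymal surface protein, changed by -0.46 ± 0.0946. The 13 epithelial markers summed to 1406 and 1426 CPM in MYC_Zab, against 2314 and 2438 CPM in Zab, with CLDN7, GRHL2 and OVOL1 at 0. Of 5 tested, 3 were lower and 1 higher. The higher one, EPCAM, is given after its values were seen, with 6 and 6 reads in MYC_Zab, against 0 and 0 in Zab (adjusted p = 0.0488), and edgeR did not call it. The keratins KRT18, KRT17 and KRT8 were lower, at -1.04 ± 0.0446, -1.64 ± 0.14 and -0.72 ± 0.0642, and their part in the falls of SPRR2D and PI3 was not tested. The 10 blood and immune markers summed to 49.3 and 51.1 CPM in MYC_Zab, against 40.8 and 39.1 CPM in Zab, with CD3E, CD14 and HBA1 among those at 0. LCP1, an actin bundler, changed by 1.26, and did not pass without Zab replicate 1 (0.83, adjusted p = 0.0673) or MYC_Zab replicate 2 (adjusted p = 0.0654). The 14 neural markers summed to 228 and 226 CPM in MYC_Zab, against 228 and 233 CPM in Zab, with TUBB3 at -1.17 ± 0.131, SYP at 1.77 ± 0.382 and NEFL at 0.39 ± 0.109. NEFL did not pass with DESeq2 (adjusted p = 0.0558) or with the MYC_Zab and WT libraries each merged into 1 sample (adjusted p = 0.0595). The 8 endothelial markers summed to 50.9 and 43.9 CPM in MYC_Zab, against 46.2 and 52.9 CPM in Zab, with PECAM1 and CLDN5 at 0.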

How the data were processed

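Newly made RNA was measured in 8 U2OS libraries, and 4 enter the comparison. Of tools, the submitters' processing notes list SAMtools 1.11, bedtools 2.29.2, STAR and Trim Galore 0.6.6, and of builds hg19 and dm6, without roles. Per the file headers, the authors counted tags over exons of hg19 RefSeq genes with HOMER on the opposite strand, keeping 1 transcript per gene. The deposited values are a signal: not whole numbers, but whole multiples of 1 step per library, so whole reads were recovered (99.954% to 100% of values within 0.02 reads). What set the step is not stated by any label or header. Reads per library ranged from 1839960 to 4072059, and 77.17% to 82.69% of low values were even, so reads may not be independent and counting intervals may be too narrow. Intervals and floors cover counting error only.

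The design assumed counts. Because the unit was a scaled signal, limma 3.58.1 (R 4.3.3) was run on log2(CPM + 1), with TMM from edgeR 4.0.16, edgeR's filterByExpr at 10 reads, all 8 libraries in 1 fit, a trend in the prior variance and 4 residual degrees of freedom. A pseudocount of 1 understates the fold of low genes. edgeR's quasi-likelihood test and DESeq2 1.42.0 on recovered reads were alternatives. Benjamini-Hochberg adjustment ran over all 11985 genes. Folds given as such are ratios of mean CPM. The span trend was removed with a loess curve on log span. Gene span and exon length are medians over the 4 libraries, since the transcript kept was the same in the 4 for 11454 of 19414 genes. Coordinates of genes are hg19, from the files.

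Lists (33, with 1086 genes, 1081 in the files) and members were chosen with earlier results of these data known, and list counts and medians carry no test. Named genes are the 12 largest rises and falls with no overlap and at least 5 CPM, 12 preset genes, the 3 smallest p of each list, and the largest at either end of span and in the interaction. Others are named as chosen after their values were seen, and some genes under the rule are not reported here. On reads simulated for MYC_Zab over Zab (11865 genes), 98.5% of 4-fold, 73.1% of 2-fold and 35.8% of 1.5-fold changes were recovered, and 0.12% of unchanged genes were called. Changes were placed in 66, 67 and 67 genes in that order, in both directions and only among genes with more reads. All genes shared 1 dispersion (0.0042). With so few genes changed, against 49.5% called in the data, these rates do not carry over to the calls above. Same-numbered replicates did not deviate together (correlations from -0.0262 to 0.0099).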

Additional observations from a re-analysis of the deposited data

Results flagged for a closer look

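The change in MYC_Zab over Zab was tested against that in MYC over WT, and the genes named here differed between them by limma at an adjusted p under 0.05. In all, 3508 genes had a higher change with Zab by label and 2876 a lower one. Among genes on the preset list the interactions were 12.11 for ADAR, -4.17 for HSPA5, -3.45 for MYC, -2.59 for H1-4, 2.41 for THBS1, -1.58 for ODC1, 1.33 for CDKN1A, 1.13 for TOP1, -0.87 for SSRP1, -0.86 for NCL, -0.56 for MAX and 0.48 for SUPT16H. Rises named here were 6.50 for SAMD9, 6.29 for ESM1, 6.27 for MMP3 and 5.81 for INHBA. Falls named here were -6.51 for SPRR2D, -4.77 for HSPA6, -4.71 for INSIG1 and -4.19 for SDF2L1. No group held the 4 libraries that a check for stray samples needs.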

How the results depend on the processing

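The calls in MYC_Zab over Zab numbered 5928. On library totals 1742 genes were lower, and on the deposited scale 9044 were called, 8807 higher and 237 lower. With the WT and MYC_Zab pairs as 1 sample each 3861 were called, 1870 higher. With genes counted on the same transcript in all 8 libraries (6389 tested) 3273 were called, 1637 higher and 1636 lower, and the interaction called 3610. Leaving out 1 library gave 4446 to 5863 calls, 2349 to 3187 higher and 2097 to 2706 lower, 5467 to 6622 for the interaction, and a gap between the longest and shortest genes of 0.716 to 0.797. That gap was 0.586 with a pseudocount of 5, 0.49 with no filter, 0.604 on the same transcripts, 0.324 with the exon-length trend removed (chosen after seeing the data) and -0.0319 with the span trend removed, which takes it out by construction. The fit with the replicate block called 5928 genes, 3214 higher and 2714 lower, with a gap of 0.746, and 6380 for the interaction. The pairing correlation of MYC_Zab with Zab was -0.0135, and no call count moved by over 1.5 times under the block.

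List medians are given here minus the median of all genes. A pseudocount of 5 gave -0.254 for S phase and 0.5911 for zinc fingers. The deposited scale gave -0.6009 for interferon genes, -0.2721 for ribosomal proteins, -0.2174 for S phase and 0.1288 for YAP targets. No filter gave -0.0673 for immediate early genes and -1.7089 for histones. For interferon genes a minimum of 5 CPM gave -0.0524, edgeR -0.6025, DESeq2 -0.6207, and leaving out ADAR and MYC -0.7577. The 4 libraries alone gave -0.7415 for interferon genes and -0.2558 for S phase. The same transcripts turned the sign for matrix (0.0125), immediate early (0.0176), interferon (0.0207) and serine genes (0.0391). They gave -0.0816 for chaperones, -0.7089 for NF-kB, -0.0994 for oxidative phosphorylation, 0.4406 for p53, -0.2461 for histone variants, -0.2349 for ribosomal proteins, 1.0124 for topoisomerases and 0.1672 for YAP targets. Removing the span trend turned the sign for oxidative phosphorylation (0.0696), ribosomal proteins (0.0499) and ribosome biogenesis (0.0231). It gave -0.2025 for MYC targets, -0.2822 for matrix, -0.1844 for heat shock, -0.0111 for immediate early, -0.584 for interferon, -0.4258 for NF-kB, -0.8502 for histones, -0.2351 for S phase and 0.1657 for topoisomerases. The causes were not tested. Leaving out 1 library gave -0.665 to -0.4967 for NF-kB, 0.0133 to 0.1765 for MYC-repressed genes, -0.3886 to -0.1923 for the MYC network, -0.2788 to -0.1586 for immediate early genes, -0.3004 to -0.2512 for S phase, 0.0651 to 0.1302 for YAP, -0.3713 to -0.1625 for nucleic acid sensing, -0.7865 to -0.4357 for cholesterol, -0.2764 to -0.1766 for matrix, -0.7867 to -0.3922 for interferon, -0.2044 to -0.0497 for mitosis, -0.5047 to -0.2896 for histone variants, -0.139 to -0.0747 for ribosome biogenesis, -0.2637 to -0.1138 for serine and 0.1089 to 0.4333 for topoisomerases. Of the named genes' values 3000 were counted as kept, 20 lost the call, 4 gained it and 0 called genes turned sign by the tools run. For library totals and the deposited scale this count was made after the shift in the median of all genes was subtracted. A gene not called in the main fit was counted as kept when its sign turned. Without the subtraction some called genes turned sign on the deposited scale, such as MYC (-0.34 to 0.54), SSRP1 (-0.49 to 0.39) and ODC1 (-0.81 to 0.08). Zab libraries had the fewest reads, which limits low genes.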
